A study of Mus musculus with 3 samples.

Results

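Mouse chromosome 14 had the highest share of lamina-associated sequence of the 19 autosomes in a DamID study of mouse embryonic fibroblasts (MEFs), and its domains are described here. Its members are every fragment and every listed lamina-associated domain (LAD) that the deposited files place on chromosome 14, coordinates being those of mouse build mm9. They number 303607 of 6415372 fragments, 109 of 2159 LADs in the Dam-Lamin A list and 116 of 2374 LADs in the Dam-Lap2b list. The chromosome was chosen by its extreme share of listed LAD sequence, so that share and every value from the same profiles and lists are given as description, without a test.

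The nuclear lamina is a meshwork of lamin filaments under the inner nuclear membrane, and large stretches of each chromosome, the LADs, lie against it. Lamin A builds part of this meshwork and is also found in the nuclear interior, and Lap2b is a protein of the inner nuclear membrane that binds lamins. LADs tend to hold few genes, and their genes tend to be silent or weakly expressed. In DamID a protein carries the enzyme Dam of bacteria, so that the adenine of GATC becomes methylated near the places the protein visits, and the methylated GATC fragments are amplified and sequenced. Dam alone, which also methylates open chromatin freely, serves as the usual reference.

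The study has 3 groups of 1 sample each: Dam-Lamin A, Dam-Lap2b and Dam Only, named by the protein that a murine retrovirus brought into the cells. All 3 groups are wild type MEFs of strain C57BL/6 grown in the same medium, and no age or clone is given in the labels. Both fusions came from an added expression cassette, beside the cells' own proteins. Each fusion has a profile (1 log2 value per fragment) and a LAD list, while no file of Dam Only was used here. The identity of the cells could not be checked, because DamID measures no RNA. With 1 sample a group there was no replicate check, no p-value was computed, and each SD below is a spread over bins, LADs or edges within 1 library.

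Each profile value has the form of log2 of fusion reads over reference reads, 1 being added to both, plus a constant. Both profiles rest on the same reference reads, so their likeness is partly built in. The smallest whole numbers that give both values of a fragment were found for 99.997% of the chromosome 14 fragments, and they add up to at least 7025793 Dam-Lamin A reads, 8103896 Dam-Lap2b reads and 7106597 reference reads. Their medians were 11, 11 and 7 reads per fragment. No source used here says which library is the reference; it is taken to be Dam Only. A value of 1 then stands for 2-fold more fusion reads than reference reads, before the constant.

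On chromosome 14 neither profile was higher in the bins of its own list alone than in those of the other. In the 613 bins of 10 kb that lie in the Dam-Lamin A list alone, the Dam-Lamin A profile averaged -0.03 ± 0.66, below its 0.46 ± 0.64 in the 253 bins of the Dam-Lap2b list alone. The Dam-Lap2b profile averaged 0.35 ± 0.45 and 0.26 ± 0.71 in the same bins. Without the last 1.5 Mb the difference between the first and the second set of bins went from -0.50 to -0.28 in Dam-Lamin A and from 0.083 to 0.35 in Dam-Lap2b. The step at LAD edges, from 10 kb outside to 10 kb inside, was also larger with the list of the other label: 1.44 against 0.79 in Dam-Lamin A, and 1.11 against 0.60 in Dam-Lap2b. The 2 lists may therefore be exchanged between the labels, which no source used here settles. Profiles and lists are named by their labels throughout, and the main values that join a profile to a list are given with both lists. Both lists hold the same 69.2 Mb of chromosome 14, and 36.3% of the span is in neither, so these list-specific bins are few.

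The sequence that the assay reads can be shown at promoters. The fragments of the files end at GATC sites, so a promoter with at least 3 such sites can be found among them by the spacing of its sites, without a genome. Of 1358 RefSeq promoters of chromosome 14 genes (assembly GRCm38.p6, 250 bases before to 50 after the start, 1092 symbols), 31 hold that many sites and 15 matched exactly 1 place on the chromosome. All 15 fell in the order of their genes, although 11 of them also matched places on other chromosomes. At least 1 GATC stands in 48.9% of the chromosome's promoters and in 48.0% of all 32851 promoters of the same length, and 3 or more stand in 2.28% and 3.35%. GATC reads the same on both strands.

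The promoters of 5 genes are shown because they include places deep inside the longest LAD, nearer a LAD edge and in neither list. Each line gives the 250 bases before the start, 5′ to 3′ on the strand of the gene, from RefSeq (GRCm38.p6), with GATC in capitals. The first 3 lie in LADs of both lists and the other 2 in neither.
Slitrk1: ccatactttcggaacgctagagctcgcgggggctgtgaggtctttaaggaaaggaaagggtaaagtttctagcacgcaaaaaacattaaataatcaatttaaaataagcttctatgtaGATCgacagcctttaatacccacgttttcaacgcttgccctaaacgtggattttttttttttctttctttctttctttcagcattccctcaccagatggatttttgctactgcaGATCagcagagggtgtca
Gm32815: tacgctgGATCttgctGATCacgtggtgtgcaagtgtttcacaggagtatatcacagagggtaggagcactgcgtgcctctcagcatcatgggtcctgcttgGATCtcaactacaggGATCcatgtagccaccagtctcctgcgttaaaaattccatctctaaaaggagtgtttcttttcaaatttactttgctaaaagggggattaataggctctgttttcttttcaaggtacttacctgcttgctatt
B230110C06Rik: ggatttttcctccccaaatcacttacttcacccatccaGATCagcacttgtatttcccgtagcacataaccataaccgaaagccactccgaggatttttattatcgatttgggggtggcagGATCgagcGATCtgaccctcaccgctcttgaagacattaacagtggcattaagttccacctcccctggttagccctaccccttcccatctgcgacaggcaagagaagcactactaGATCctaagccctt
Synpo2l: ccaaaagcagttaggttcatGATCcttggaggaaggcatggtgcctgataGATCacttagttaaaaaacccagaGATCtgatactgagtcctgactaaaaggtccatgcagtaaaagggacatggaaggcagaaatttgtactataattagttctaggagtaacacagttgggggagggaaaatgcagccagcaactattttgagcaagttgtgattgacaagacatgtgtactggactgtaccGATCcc
Mcpt1: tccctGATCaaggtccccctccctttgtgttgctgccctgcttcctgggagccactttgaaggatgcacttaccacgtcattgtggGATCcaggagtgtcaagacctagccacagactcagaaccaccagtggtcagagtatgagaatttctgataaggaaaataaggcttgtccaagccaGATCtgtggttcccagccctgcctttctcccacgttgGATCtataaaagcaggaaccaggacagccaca

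Slitrk1, a neuronal transmembrane protein of the synapse, is on the minus strand, and its GATC sites matched chr14:109313457-109313585. That place lies 2743 kb inside the longest LAD of the Dam-Lamin A list and 857 kb inside a LAD of the Dam-Lap2b list. Its 10 kb bin had 2.10 in Dam-Lamin A and 0.90 in Dam-Lap2b, while the 100 kb around it had 1.71 and 1.73. Its promoter matched 13 places on other chromosomes by spacing alone, but the RefSeq table lists Slitrk1 on chromosome 14 alone.

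Gm32815 is a long non-coding RNA gene on the minus strand, matched at chr14:86699859-86699965 and nowhere else in the genome. It lies 42.2 kb inside a LAD of 413 kb in the Dam-Lamin A list, and its bin had 0.88 and 1.00 in the 2 profiles. B230110C06Rik, a long non-coding RNA gene on the plus strand between Lrrc3b and Oxsm, matched chr14:16270490-16270684. Its bin had 0.85 in Dam-Lamin A and 1.10 in Dam-Lap2b, and the 100 kb around it had 1.49 and 1.48. All 3 promoters are thus on the high side in both profiles.

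Synpo2l, a cytoskeletal protein of heart and skeletal muscle, is on the minus strand at chr14:21487583-21487803, which was its only match. It lies 692 kb from the nearest LAD of the Dam-Lamin A list and 631 kb from that of the Dam-Lap2b list. Its bin had -0.94 in Dam-Lamin A and -1.93 in Dam-Lap2b, the lowest Dam-Lap2b value of the 15 promoters. Mcpt1, a mast cell protease, is on the plus strand at chr14:56636560-56636769, also its only match. Its bin had -0.52 and 0.05, and the 100 kb around it 0.29 and 0.17, so it is near 0 in spite of lying in neither list.

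Across the 15 placed promoters, 5 lay in LADs of both lists and 10 in neither. The other 2 inside were Olfr747, an olfactory receptor gene among its like (1.74 and 1.46 in its bin), and Gm6999, a non-coding gene between Pcdh8 and Olfm4 (0.48 and 0.86). The A330035P11Rik promoter, with a GC content of 71.2%, lay outside both lists at -0.89 and -1.49. Gm41144 and A530076I17Rik, which flank Ddhd1 next to the growth factor gene Bmp4, were outside as well, at -1.23 and -1.36 in Dam-Lamin A and -0.91 and -0.44 in Dam-Lap2b. Gm35909 and Gm6145, between Ndfip2 and the growth factor signalling inhibitor gene Spry2, were outside at -0.42 and -0.84 in Dam-Lamin A.

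LADs of the Dam-Lamin A list covered 61.6% of chromosome 14, or 75.3 Mb of its 122 Mb from the first to the last fragment. The other 18 autosomes ran from 37.0% on chromosome 11 to 59.7% on chromosome 3, with a median of 51.8% and an SD of 5.49. LADs of the Dam-Lap2b list covered 58.7%, or 71.8 Mb, against 38.8% to 54.9% on the others and a median of 48.2%. Chromosome 3, the next below in both lists, is the autosome just outside the choice. The mean over 10 kb bins was also the highest of the 19 in both profiles, 0.42 in Dam-Lamin A and 0.54 in Dam-Lap2b. Weighted by fragment length the means were 0.24 and 0.67, again the highest in both. Without that weighting the next highest means were 0.33 on chromosome 1 in Dam-Lamin A and 0.49 on chromosome 3 in Dam-Lap2b.

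**Figure D1:**
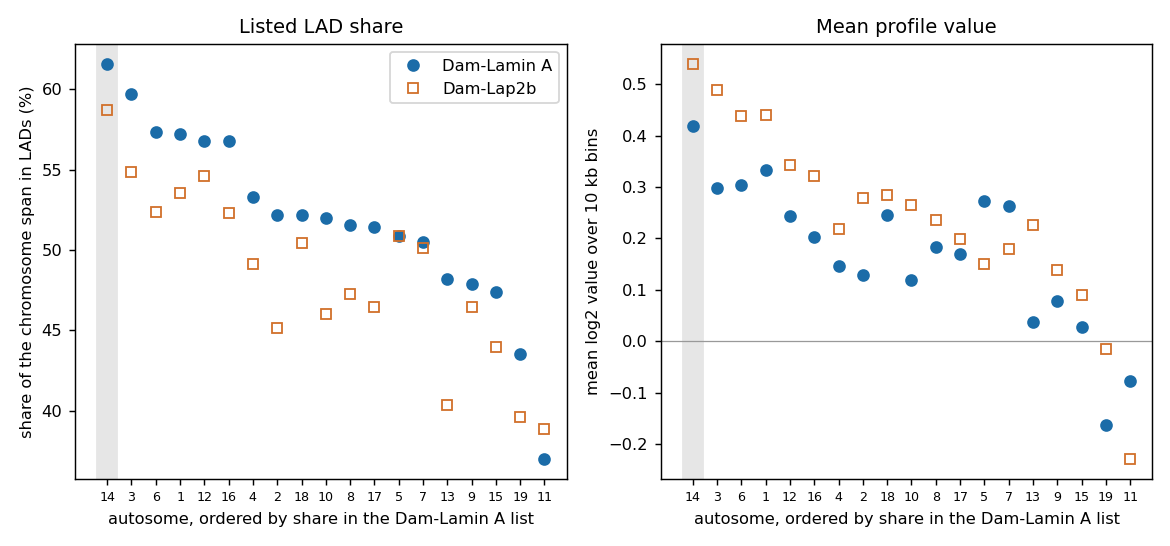
Share of each autosome's span in listed LADs (left, percent) and mean profile value over 10 kb bins (right, log2), for Dam-Lamin A (filled circles) and Dam-Lap2b (open squares), 1 sample each. The autosomes are ordered by their share in the Dam-Lamin A list. Chromosome 14 (shaded) stands at 61.6% and 58.7% on the left and at 0.42 and 0.54 on the right, each the highest among the points of the same symbol.

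Of the 12171 bins of chromosome 14 with at least 5 fragments, 7610 (62.5%) averaged above 0 in Dam-Lamin A, where 54.2% of the bins of all autosomes did. In Dam-Lap2b 7998 bins (65.7%) did, against 57.7% over all autosomes, and chromosome 3 was level with it at 65.8%. A total of 7299 bins (59.97%) were above 0 in both profiles and 3862 (31.7%) were above 0 in neither. Together these bins made up 91.7%, rank 6 of 19, where the other autosomes had 88.4% to 92.8% with a median of 90.4%. The split into both and neither is given for chromosome 14 alone. Bins where Dam-Lamin A was higher by at least 1 numbered 225, or 1.85%, against a background of 4.4% of all autosomal bins. Bins where Dam-Lap2b was higher by at least 1 numbered 689, or 5.66%, against 6.82%. Both shares were below those over all autosomes. The mean difference on chromosome 14, Dam-Lamin A minus Dam-Lap2b, was -0.12 ± 0.54.

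Split by the listed LADs, the high mean of the chromosome lay mostly in its share of LAD bins. The lists belong to the same samples as the profiles, and the chromosome was chosen by its listed share, so the split is a description. Bins inside Dam-Lamin A LADs averaged 1.21 ± 0.75 in the Dam-Lamin A profile (7528 bins), rank 6 of 19, and bins outside -0.87 ± 0.85 (4643 bins), rank 4. Inside Dam-Lap2b LADs the Dam-Lap2b profile averaged 1.37 ± 0.62 (7168 bins), and outside -0.65 ± 0.81 (5003 bins). With the lists exchanged, the Dam-Lamin A profile averaged 1.29 inside and -0.83 outside, and the Dam-Lap2b profile 1.32 and -0.73. The mean of chromosome 14 exceeded that of the pooled bins of the other autosomes by 0.244 in Dam-Lamin A, of which the larger share of LAD bins (61.9% against 52.5%) made up 0.195, or 79.99%. In Dam-Lap2b the excess was 0.295, and the LAD share (58.9% against 48.9%) made up 0.202, or 68.4%. With the lists exchanged these parts were 87.9% in Dam-Lamin A and 65.8% in Dam-Lap2b. The rest came from bins inside and outside LADs, which were both slightly higher than on the other autosomes. There they averaged 1.17 and -0.92 in Dam-Lamin A and 1.27 and -0.74 in Dam-Lap2b by the list of the same label. The outside bins of chromosome 14 include those past its last LAD: 115 at 1.49 ± 0.69 in Dam-Lamin A, and 54 at 1.67 ± 0.41 in Dam-Lap2b. How much of the higher outside means these bins make up was not tested.

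Read densities were taken over the same bins. Per kb and per 1000000 autosomal reads, Dam-Lamin A had 0.482 reads inside its LADs of chromosome 14 and 0.370 outside, and Dam-Lap2b had 0.522 and 0.397 by its own list. With the lists exchanged Dam-Lamin A had 0.495 and 0.358, and Dam-Lap2b 0.520 and 0.392. The reference had 0.195 reads inside and 0.727 outside the Dam-Lamin A LADs, and 0.188 and 0.701 by the Dam-Lap2b list. The reference thus differed between inside and outside by more than either fusion did. On the other autosomes the reference had 0.194 inside and 0.674 outside the Dam-Lamin A LADs, so the reference was alike inside and higher outside on chromosome 14. By the lists of the same label, Dam-Lamin A had 0.498 inside and 0.334 outside on the other autosomes, and Dam-Lap2b had 0.496 and 0.344. Outside LADs both fusions were thus also higher on chromosome 14, while inside Dam-Lamin A was lower and Dam-Lap2b higher. These reads are the smallest whole numbers that fit the values, and reads without molecular identifiers are not independent molecules. The totals are lower bounds, while the densities are ratios of such totals and are not.

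LADs were not spread evenly. In windows of 1 Mb with at least 50 bins, 76 of 122 averaged above 0 in Dam-Lamin A and 82 in Dam-Lap2b, and 116 had the same sign in both. At least 90% of the window was LAD in 47 and 42 windows, and at most 10% in 17 and 19. Windows were counted on chromosome 14 alone, so the counts describe its layout and do not set it apart from other autosomes. The longest run of windows above 0 in both profiles had 21 windows, from 100 to 121 Mb, with means of 1.22 and 1.29. Runs of 11 windows from 88 to 99 Mb (1.35 and 1.53), 10 from 36 to 46 Mb (1.11 and 1.30), 9 from 3 to 12 Mb (0.93 and 0.97) and 7 from 80 to 87 Mb (1.501 and 1.68) followed. The longest run below 0 had 8 windows, from 61 to 69 Mb, with -0.70 in Dam-Lamin A and -0.60 in Dam-Lap2b.

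**Figure D2:**
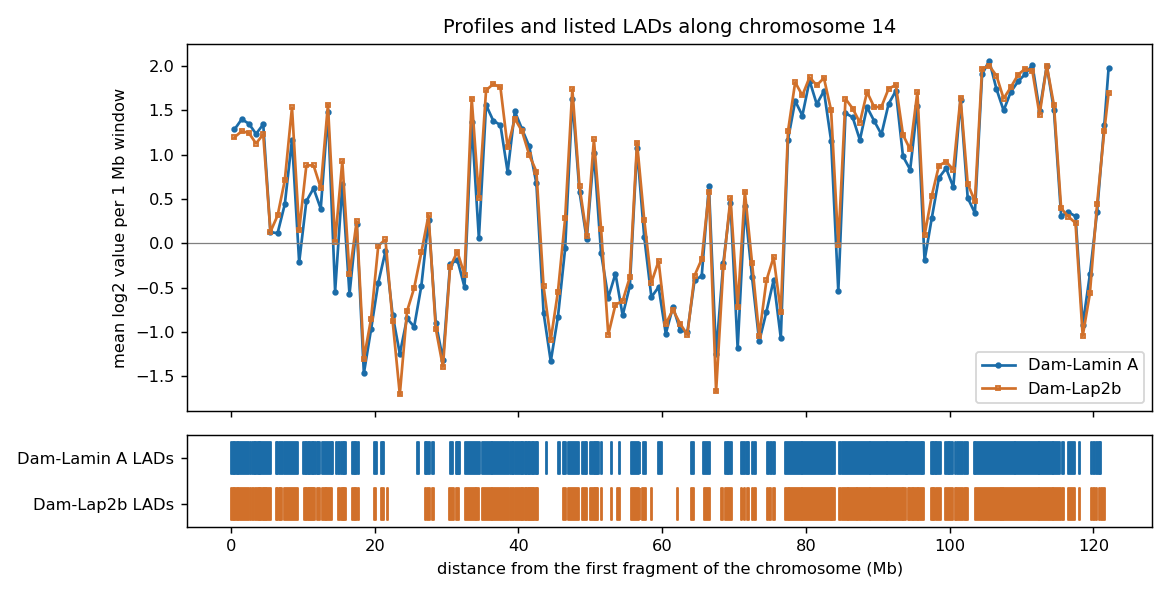
Mean profile value in 1 Mb windows (top, log2; circles Dam-Lamin A, squares Dam-Lap2b) and listed LADs (bottom, filled blocks) against the distance from the first fragment of chromosome 14 in Mb, 1 sample each. The first fragment lies about 3 Mb from the chromosome's origin. Both curves are high near the start and in the stretches that span 36 to 46 Mb and 80 to 120 Mb of the chromosome. Over much of the rest they are lower, with many crossings of 0.

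The stretch from 80 to 120 Mb was LAD over most of its length. It makes up 32.7% of the span, and 88.7% of it was LAD in the Dam-Lamin A list and 86.5% in the Dam-Lap2b list. It held 47.1% and 48.2% of the LAD length of the chromosome, and its bins averaged 1.25 ± 1.00 and 1.39 ± 0.84. In steps of 1 Mb from the first fragment, no other autosome had 40 contiguous Mb with as high a listed share, the nearest being 85.5% and 77.7% on chromosome 16. Without it, 48.4% and 45.2% of the rest of chromosome 14 was LAD. When each autosome was taken without its own most LAD-rich 40 Mb, that remainder had rank 5 and rank 6 of 19. Its mean profile values were 0.01 and 0.13.

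By 10 Mb, the LAD share in the Dam-Lamin A list went from 84.6% at 3 to 10 Mb and 72.5% at 10 to 20 Mb to 19.3% at 20 to 30 Mb. It was 59.8%, 61.7% and 49.9% in the next 30 Mb, 24.4% at 60 to 70 Mb and 31.9% at 70 to 80 Mb. The next 20 Mb had 92.8% and 93.1%, followed by 78.8% at 100 to 110 Mb and 90.1% at 110 to 120 Mb, before 36.6% at the end. The Dam-Lap2b list was low in the same stretches, with 14.2% at 20 to 30 Mb, 20.1% at 60 to 70 Mb and 91.6% at 80 to 90 Mb, though the order among the high stretches differed. By listed share the LAD-poor stretches thus lay at 20 to 30 Mb, at 60 to 80 Mb and past 120 Mb. The profiles were low only in the first 2, with -0.71 and -0.59 at 20 to 30 Mb and -0.52 and -0.41 at 60 to 80 Mb. Past 120 Mb, where the end of the chromosome is unlisted, they averaged 0.21 and 0.13.

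The highest 1 Mb windows lay together in the distal stretch. The window from 108 to 109 Mb averaged 2.06 ± 0.39 in Dam-Lamin A and 2.004 ± 0.30 in Dam-Lap2b, with all 100 bins above 0 in both. The windows at 114 to 115 Mb (2.02 and 1.94), 116 to 117 Mb (2.01 and 2.01) and 107 to 108 Mb (1.91 and 1.97) were the others among the 3 highest of either profile, and 113 to 114 Mb was level with the last of them (1.91 and 1.97). The 4 windows first named were LAD from end to end in both lists. The lowest windows lay between 21 and 71 Mb. Dam-Lamin A was lowest at 21 to 22 Mb, where Synpo2l lies (-1.47 against -1.30 in Dam-Lap2b), at 47 to 48 Mb (-1.33 against -1.09) and at 32 to 33 Mb (-1.31 against -1.39). Dam-Lap2b was lowest at 26 to 27 Mb (-1.71 against -1.25 in Dam-Lamin A) and at 70 to 71 Mb (-1.67 against -1.25). None of these 5 windows held any LAD sequence of either list.

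Windows where the profiles differed most stayed within 0.56 of each other. Dam-Lap2b was higher than Dam-Lamin A by 0.56 at 17 to 18 Mb (0.02 against -0.54), by 0.52 at 87 to 88 Mb and by 0.47 at 73 to 74 Mb. Dam-Lamin A was the higher by 0.46 at 26 to 27 Mb, by 0.42 at 70 to 71 Mb and by 0.42 at 55 to 56 Mb (-0.61 against -1.03). All 6 windows averaged near or below 0 in both profiles.

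The longest LAD of the Dam-Lamin A list, chr14:106570792-112072166, spans 5.50 Mb, holds the Slitrk1 promoter and averaged 1.75 ± 0.55 in Dam-Lamin A and 1.81 ± 0.42 in Dam-Lap2b. The next were chr14:82470337-86643317 (4.17 Mb, 1.62 and 1.78) and chr14:87958961-91861520 (3.903 Mb, 1.40 and 1.55). The longest of the Dam-Lap2b list were chr14:110418057-115414426 (4.996 Mb), chr14:82477204-86456839 (3.98 Mb) and chr14:106565204-110170990 (3.61 Mb). All 6 lie between 80 and 120 Mb, and at least 98.8% of each is in the other list too. The Dam-Lap2b list divides the longest Dam-Lamin A LAD into several that together cover 99.6% of it.

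Among LADs of at least 500 kb, chr14:112081659-115433332 was the highest of the Dam-Lamin A list, with 1.89 ± 0.48, and chr14:106565204-110170990 of the Dam-Lap2b list, with 1.88 ± 0.42. The lowest of the Dam-Lamin A list, chr14:62403569-62936862, averaged -0.03 ± 0.49 in Dam-Lamin A and 0.18 ± 0.34 in Dam-Lap2b, and none of it is in the Dam-Lap2b list. The lowest of the Dam-Lap2b list, chr14:33405101-34012826, averaged 0.09 ± 0.44 in Dam-Lap2b and 0.23 ± 0.45 in Dam-Lamin A. Some listed LADs were therefore near 0 in both profiles.

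LADs of the longer classes had higher means with either list. Dam-Lamin A LADs of 100 to 200 kb averaged 0.32 ± 0.46 (25 LADs), those of 200 to 500 kb 0.69 ± 0.44 (44), those of 500 to 1000 kb 1.06 ± 0.55 (20) and longer ones 1.42 ± 0.25 (20). Dam-Lap2b LADs averaged 0.70 ± 0.40, 0.85 ± 0.44, 1.28 ± 0.37 and 1.61 ± 0.22 in the same classes, of 27, 49, 22 and 18 LADs. With the lists exchanged the classes ran from 0.66 to 1.495 in Dam-Lamin A and from 0.52 to 1.53 in Dam-Lap2b. On the other autosomes the classes ran from 0.42 to 1.40 in Dam-Lamin A and from 0.68 to 1.52 in Dam-Lap2b. Only 22.9% of the chromosome 14 LADs in the Dam-Lamin A list were in the shortest class, against 31.1% elsewhere, and 23.3% against 35.4% in the Dam-Lap2b list.

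Long LADs accounted for much of the coverage. The 20 LADs of at least 1 Mb in the Dam-Lamin A list covered 36.8% of the span, the highest share of the 19 autosomes by a narrow margin (chromosome 6 had 36.7%), and made up 59.8% of the LAD length. The 18 of the Dam-Lap2b list covered 30.7%, second to chromosome 6 with 33.5%, and made up 52.2% of the LAD length. The median LAD was 374 kb in the Dam-Lamin A list, rank 5 of 19, and 339 kb in the Dam-Lap2b list, rank 3. The number of LADs, at 8.92 and 9.49 per 10 Mb, had rank 5 and rank 6. These medians and numbers count LADs apart on either side of 11 and 10 gaps that hold no fragment. Chromosome 4 also had 11 and 10 such gaps, chromosome 7 had 10 and 10, and the others had at most 6.

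Gaps of at least 1 Mb took up 23.6% of the span in the Dam-Lamin A list and 24.96% in the Dam-Lap2b list, the lowest shares of the 19 autosomes, where the others had 23.9% to 42.1% and 26.9% to 43.5%. There were 15 such gaps in each list. Only gaps between 2 LADs are counted, so the unlisted 1140 kb past the last Dam-Lamin A LAD are left out. The longest gap of the Dam-Lamin A list, chr14:24357169-28849963, spans 4.49 Mb with -0.88 ± 0.77 in Dam-Lamin A and -0.89 ± 0.79 in Dam-Lap2b. It was followed by chr14:62936863-67006817 (4.07 Mb, -0.93 and -0.90) and chr14:31267625-33480631 (2.21 Mb, -1.19 and -1.27). The longest of the Dam-Lap2b list were chr14:24810420-29957635 (5.15 Mb), chr14:61595404-65081087 (3.49 Mb) and chr14:45742720-49161744 (3.42 Mb).

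The median gap was 82.3 kb in the Dam-Lamin A list, the shortest of the 19 autosomes, and 108 kb in the Dam-Lap2b list. Of the gaps, 11 and 10 hold no fragment at all and are breaks of the fragment map, 500.1 kb and 450.1 kb in all. Over the gaps that do hold fragments the medians were 131 kb and 161 kb, which stood at place 14 of 19 from the longest in both lists. Chromosome 14 thus had the smallest share of its span in long gaps between LADs, chromosome ends left out, but not the shortest gaps where fragments were measured. Joining LADs across the gaps that hold no fragment left the listed share at 62.0% and 59.1%.

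**Figure D3:**
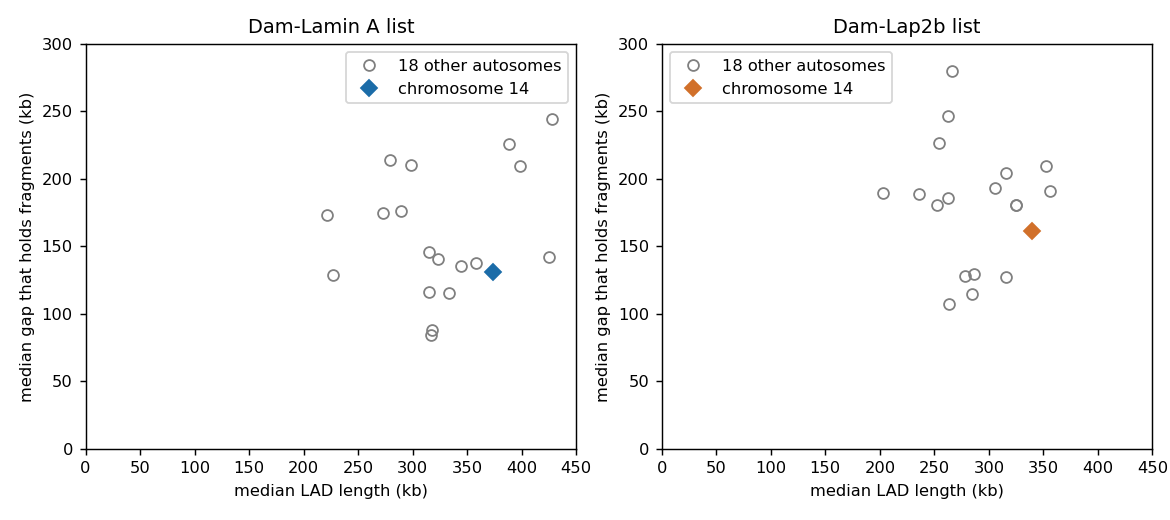
Median LAD length (x axis, kb) against the median length of the gaps between LADs that hold at least 1 fragment (y axis, kb), for each autosome in the Dam-Lamin A list (left) and the Dam-Lap2b list (right). LADs are taken as listed, so those on either side of a gap without fragments count apart. Chromosome 14 (diamond) stands at 374 kb and 131 kb on the left and at 339 kb and 161 kb on the right, toward longer LADs and within the range of the other 18 autosomes (open circles).

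By the lists of the same label, the values rose over several distance classes across LAD edges. With the lists exchanged the rise at the edge itself was larger. In the Dam-Lamin A profile, bins more than 500 kb inside an edge averaged 1.59 ± 0.55, those within 10 kb inside 0.30 ± 0.77, those within 10 kb outside -0.39 ± 0.70 and those more than 500 kb outside -0.92 ± 0.92. That last class includes unlisted bins at the chromosome's end, past the last LAD. In Dam-Lap2b the same classes had 1.79 ± 0.39, 0.71 ± 0.61, 0.11 ± 0.70 and -0.90 ± 0.74, so its first bins outside an edge averaged above 0. With the lists exchanged, the bins within 10 kb inside and outside had 0.69 ± 0.57 and -0.37 ± 0.74 in Dam-Lamin A, and 0.56 ± 0.56 and -0.23 ± 0.62 in Dam-Lap2b. By the lists of the same label, the step from 10 kb outside to 10 kb inside averaged 0.79 ± 0.74 over 197 edges in Dam-Lamin A and 0.60 ± 0.59 over 211 edges in Dam-Lap2b. These steps were the 17th and 12th highest of the 19 autosomes, and with 50 kb on each side they were 0.77 and 0.59, the lowest in both lists. With the lists exchanged the steps of 1.44 and 1.11 both had rank 18.

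**Figure D4:**
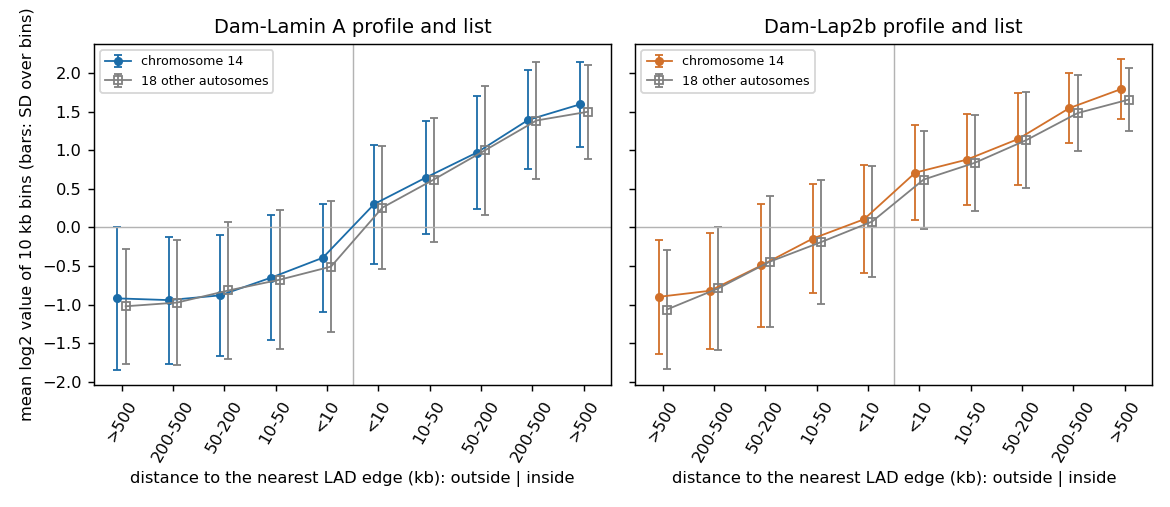
Mean profile value of 10 kb bins (log2, bars the SD over bins) by distance to the nearest LAD edge in kb, outside on the left and inside on the right of each panel, for chromosome 14 (filled circles) and the pooled bins of the other 18 autosomes (open squares). More than 500 kb inside an edge chromosome 14 had 1.59 and 1.79 against 1.499 and 1.66 elsewhere, with SD bars that overlap in every class.

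The 2 lists overlapped more on chromosome 14 than on any other autosome, although they and the profiles share a reference. Lists that cover more of a chromosome also overlap more by coverage alone, and this chromosome was chosen for its listed share. The shared length over the length in either list was 0.889, against 0.793 to 0.868 elsewhere. Of the Dam-Lamin A LAD length 91.9% was in the Dam-Lap2b list, and of the Dam-Lap2b length 96.4% was in the Dam-Lamin A list. At least 50% of the length was shared for 93 of 109 Dam-Lamin A LADs (85.3%) and 109 of 116 Dam-Lap2b LADs (94.0%), while 10 and 5 had no overlap. These LAD counts are for chromosome 14 alone and were not set beside those of other autosomes. Edges lay a median of 12.6 kb and 14.5 kb from the nearest edge of the other list, and 37 were identical. All 10 gaps of the Dam-Lap2b list that hold no fragment recur with the same edges in the Dam-Lamin A list. Their edges, which lie at breaks of the fragment map, count among the 37 and are no sign of likeness between the profiles. With 1 rule for both profiles (runs of bins above 0 of at least 100 kb), domains covered 52.1% of the span in Dam-Lamin A and 57.4% in Dam-Lap2b, again the highest of the 19 in both. Their overlap was 0.888, the second highest.

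Sequence in 1 list alone came to 6.08 Mb for Dam-Lamin A and 2.57 Mb for Dam-Lap2b. The longest such stretches of the Dam-Lamin A list, chr14:62403569-62936862, chr14:28849964-29223102 and chr14:123506500-123795449, had -0.03, -0.24 and 0.23 in Dam-Lamin A and 0.18, 0.27 and 0.44 in Dam-Lap2b. All 3 were thus higher in the profile of the other label. The longest of the Dam-Lap2b list, chr14:124071488-124655711, chr14:56725111-57023396 and chr14:71185666-71471840, had 1.17, 0.24 and -0.25 in Dam-Lap2b and 1.24, 0.49 and 0.17 in Dam-Lamin A. Again all 3 were higher in the profile of the other label.

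The 2 ends of the chromosome differed in how the lists treated them. From 3 to 8 Mb, 94.0% was LAD in the Dam-Lamin A list and 92.2% in the Dam-Lap2b list, with means of 1.32 ± 0.35 and 1.21 ± 0.35. The first 3 Mb of fragments ranked first in Dam-Lamin A (1.35) and second in Dam-Lap2b (1.24) among the first 3 Mb of all autosomes. At the other end the last Dam-Lamin A LAD stops at 124054746, 1140 kb before the last fragment, yet the 115 bins beyond averaged 1.49 ± 0.69 in Dam-Lamin A, with 112 above 0. The last Dam-Lap2b LAD stops 539 kb before the end, and all 54 bins beyond were above 0 in both profiles, at 1.88 ± 0.51 and 1.67 ± 0.41. The 3 highest bins outside both lists all lie there, led by chr14:124940001-124950000 with 2.65 in Dam-Lamin A and 2.02 in Dam-Lap2b.

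The last 500 kb averaged 1.94 in Dam-Lamin A, rank 4 of 19, and 1.71 in Dam-Lap2b, rank 2, and held no listed LAD. Of the other autosomes whose last 500 kb held no LAD of either list, chromosomes 8 and 12 had 1.97 and 2.08 in Dam-Lamin A. Chromosomes 4, 6, 7, 16 and 19 had -0.80, -0.04, -1.40, -0.65 and -0.32. The lowest bins inside both lists lay elsewhere, at chr14:13170001-13180000 (-0.18 in Dam-Lamin A and -1.92 in Dam-Lap2b), chr14:49290001-49300000 (-0.50 and -1.21) and chr14:118730001-118740000 (-0.76 and -0.67).

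Gene content, which the choice of the chromosome did not use, was low. RefSeq places 851 protein-coding genes on chromosome 14, or 6.96 per Mb of fragment span, 15th of the 19 autosomes, where the others have 5.74 to 13.6. Over the 19 autosomes, gene density and listed share had a Pearson's r of -0.695 (Spearman's rho -0.658) for Dam-Lamin A and -0.580 (rho -0.640) for Dam-Lap2b, given as a description of chromosomes that share 1 library. A line through the other 18 puts a chromosome of this gene density at 54.1% and 49.9%, and chromosome 14 lay 7.45 and 8.77 percentage points above it. The SD of the others about the line was 4.06 and 4.22 points, and the farthest above was chromosome 7, by 6.41 and 7.76 points.

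The placed promoters cut the chromosome into 13 intervals of at least 1 Mb, in which genes are counted by their RefSeq order alone. The interval from Gm6999 to Gm32815 spans 6.33 Mb and holds 2 protein-coding genes, Olfm4, a secreted glycoprotein, and Pcdh17, a protocadherin of neuronal adhesion. It was LAD over 99.5% in the Dam-Lamin A list and 98.9% in the Dam-Lap2b list, with 1.59 ± 0.51 and 1.76 ± 0.38. From Gm32815 to Gm35909 there are 30 genes in 19.2 Mb, among them the protocadherins Pcdh20 and Pcdh9, the transcription cofactor Dach1 and the endothelin receptor Ednrb, and 84.2% and 81.0% was LAD. From Gm35909 to Slitrk1 there are 2 genes, Spry2 and Trim52, in 3.40 Mb, and 87.8% and 80.9% was LAD. From Slitrk1 to A330035P11Rik there are 27 genes in 13.2 Mb, among them Slitrk6 and Slitrk5, of the same family as Slitrk1, and the glypicans Gpc5 and Gpc6, which are heparan sulfate proteoglycans of the cell surface. There 78.6% and 79.1% was LAD.

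The gene-rich middle had less. From Olfr747 to Mcpt1 there are 134 genes in 5.34 Mb, or 25.1 per Mb, with 44.8% and 42.2% LAD and mean values of -0.03 ± 1.19 and -0.05 ± 1.31. They include the proteasome subunit gene Psmb5, the proteasome activator genes Psme1 and Psme2, the cardiac myosin genes Myh6 and Myh7 and the secreted ribonuclease genes Rnase4 and Ang. From Gm35678 to Gm30365 there are 133 genes in 13.8 Mb, among them the tumour suppressor Rb1, the collagen cross-linking enzyme Loxl2, the hormone gene Gnrh1 and the serotonin receptor Htr2a. With 26.9% and 26.4% it was the least LAD-covered interval in both lists, at -0.52 ± 1.04 and -0.47 ± 0.98. From Mcpt1 to Gm35678 74 genes lie in 6.78 Mb, with 34.5% and 32.6% LAD.

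The proximal intervals did not follow the same order. From the first fragment to B230110C06Rik there are 109 genes in 13.3 Mb, 8.21 per Mb, yet 82.2% and 77.3% was LAD. Of those 109 symbols 73 are of the Gm-number form that names predicted genes. From Synpo2l to Gm41144 there are 221 genes in 24.7 Mb, among them the outer mitochondrial membrane channel gene Vdac2, the deubiquitinase Bap1, the retinal carrier gene Rbp3 and the neuregulin Nrg3, with 50.7% and 46.9% LAD. From Gm41144 to Olfr747 there are 51 genes, of which 24 are olfactory receptors, with 44.0% and 36.8% LAD. The interval from B230110C06Rik to Synpo2l, with the nuclear receptor genes Rarb and Thrb and the basement membrane gene Nid2, had 55.0% and 49.5%. From Gm30365 to Gm6999, with the protocadherin Pcdh8, it was 38.4% and 31.2%. The last interval, past A330035P11Rik, holds the zinc finger genes Zic2 and Zic5 and had 45.9% and 50.7%. Over the 13 intervals, genes per Mb and LAD share had an r of -0.597 (rho -0.802) in the Dam-Lamin A list and -0.608 (rho -0.819) in the Dam-Lap2b list. These neighbouring stretches of 1 chromosome share the library and are no independent samples.

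**Figure D5:**
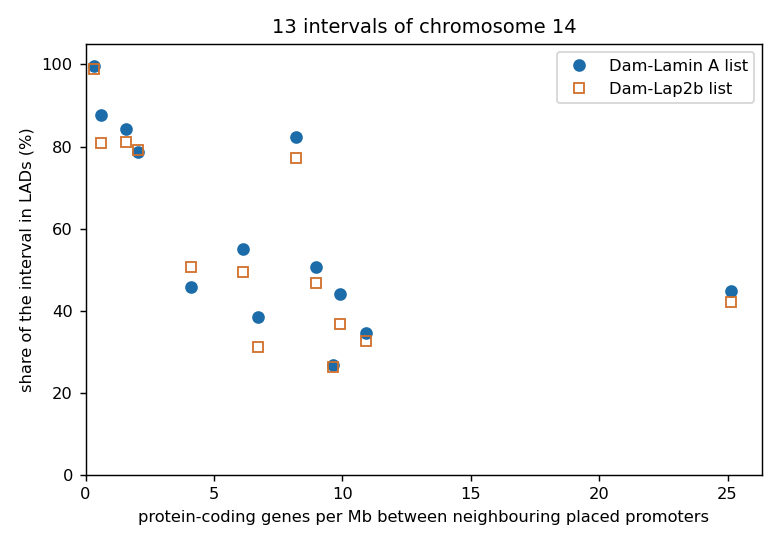
Share of each of 13 intervals of chromosome 14 in listed LADs (y axis, percent; circles Dam-Lamin A list, squares Dam-Lap2b list) against its protein-coding genes per Mb (x axis, counted by RefSeq order between neighbouring placed promoters). The 4 intervals with at most 2.05 genes per Mb all have at least 78.6% in LADs; the interval with 8.21 genes per Mb and 82.2% is the first of the chromosome.

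GATC spacing, which uses no reads, was ordinary. The median fragment of chromosome 14 was 258 bp, where the other autosomes had 248 to 268 bp. Inside Dam-Lamin A LADs the median was 247 bp and outside 276 bp, against medians of 247 and 276.5 bp over the others. Over 1 Mb windows the mean fragment length had an r of -0.228 with the Dam-Lamin A profile and -0.167 with the Dam-Lap2b profile, given as a description. The fragment map leaves 11 breaks of over 10 kb, 0.556 Mb in all, and the median 10 kb bin holds 24 fragments.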

How the data were processed

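MEFs carrying Dam-Lamin A, Dam-Lap2b or Dam Only were profiled by DamID, 1 sample each. Per the submitters' processing notes, reads were aligned with Bowtie (version not given) to build mm9. The authors deposited, for each fusion, 1 log2 value per GATC fragment and a list of LAD starts and ends (other values: coordinates in base pairs, with no score). The read counting, the constant added to the log2 values and the LAD caller are not given in the sources used here.

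Deposited log2 values were averaged over the fragments whose middle fell in a bin of 10 kb, with at least 5 fragments per bin. A bin was inside a LAD when its middle was. Starts are printed 1-based. Autosomes were ranked from the highest of 19. The excess of chromosome 14 was split into a part from the share of LAD bins and a part from bin levels. Read numbers were recovered as the smallest whole numbers that give both log2 values of a fragment, with denominators up to 5000. They are lower bounds, since a fraction in lowest terms hides a common factor, and cover counting only. Promoters were placed by matching the spacing of at least 3 GATC sites, and 15 were placed once on chromosome 14.

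Regions are named by a rule: the 3 longest LADs and gaps of each list, the 3 highest and lowest 1 Mb windows and LADs of at least 500 kb, the 3 longest stretches in 1 list alone, the windows that differ most, and the extreme bins outside and inside both lists. That rule allowed gene names only with a reference of the files' build, which was not used here. Placed promoters, and genes named by their RefSeq order between them, were added after values were seen. Listed genes are 31 of chromosome 14, all found. The members and lists were chosen with earlier results of these data known. The scripts were tested on simulated data. Python 3.11.15, numpy 2.4.6, pandas 2.3.3 and matplotlib 3.10.9 were used. The alternatives changed bins, fragment filters, averages, LAD merging and edge widths, and some were chosen after seeing the data. No p-value was computed with 1 sample a group.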

Additional observations from a re-analysis of the deposited data

Results flagged for a closer look

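Bins of chromosome 14 in 1 list alone gave contrasts of opposite sign in the 2 profiles. The mean over bins of the Dam-Lamin A list alone minus the mean over bins of the Dam-Lap2b list alone was -0.50 in the Dam-Lamin A profile and 0.083 in the Dam-Lap2b profile. The difference was not tested, as each profile is 1 sample. It was singled out because the profiles moved opposite ways under 1 contrast, each lower in the bins of its own label's list. On the other 18 autosomes the contrast ran from -0.81 to -0.12 in Dam-Lamin A and from -0.35 to 0.87 in Dam-Lap2b. Without the last 1.5 Mb, which holds the longest stretch of the Dam-Lap2b list alone, the contrasts were -0.28 and 0.35.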

How the results depend on the processing

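No paired analysis was possible because each group has 1 sample, and for the same reason no sample could be left out. Over 113 alternative values of 18 results, 90 moved by less than 1 SD over the other 18 autosomes, 23 moved by more and none changed sign. Chromosome 14 stayed the highest of 19 in 22 of 26 alternative values of listed share and mean, the exceptions being those without 80 to 120 Mb, an alternative chosen after seeing the data. Without that stretch the share was 48.4% (Dam-Lamin A) and 45.2% (Dam-Lap2b), the mean 0.013 and 0.13, and the bins above 0 50.3% and 53.7%, with the other autosomes left whole. Weighting by fragment length gave a Dam-Lamin A mean of 0.24, with 0.99 inside and -0.97 outside its LADs, and 1.53 inside for Dam-Lap2b. Fragments of 200 to 1000 bp gave -0.97 outside for Dam-Lamin A and a median fragment of 427 bp, and the mean fragment was 398 bp. Summed recovered reads, chosen after seeing the data, gave 1.57 inside for Dam-Lap2b. A threshold at the autosomal median left 58.2% of bins above it in Dam-Lap2b. Merging gaps under 25 kb gave a median Dam-Lamin A LAD of 458 kb, and mean LAD lengths were 690.5 kb and 619 kb. The Dam-Lamin A edge step was 0.89 with 20 kb on each side. Exchanging the lists between the labels, chosen after seeing the data, gave steps of 1.44 and 1.11. Without the last 1.5 Mb, chosen after seeing the data, the contrasts of list-specific bins were -0.28 and 0.35. Apart from the construction of each alternative, the cause was not tested. Depth limits single fragments (medians of 7 to 11 reads) more than bins, whose median is 24 fragments.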
